A study of Mus musculus with 9 samples.

Results

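The cytosolic ribosomal proteins are the protein components of the ribosome, and their genes were taken from the deposited expression table by name: protein-coding rows called Rpl or Rps with a number, with Rplp0, Rplp1, Rplp2, Rpsa and Fau, and without the S6 kinases. The rule found 76 genes among 41096 rows, of which 20461 are protein-coding. Of the 76, 45 encode proteins of the large subunit and 31 of the small subunit. Rplp1 and Fau were not among them under those names, and rows whose description matches these proteins are given at the end of the results.

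The cells came from the peritoneal cavity of Apoe-/- mice, which lack apolipoprotein E and are used as a model of atherosclerosis, and every group carried this genotype. The 4 diabetic samples came from mice that received streptozotocin (STZ), which kills the insulin-producing beta cells, by intraperitoneal injection at 40 mg/kg on 5 days from 8 weeks of age, and the 5 control samples from mice given citrate buffer. All mice then received a western diet for 8 weeks, an injection of 1.5 mL of 3% thioglycollate to draw leukocytes into the cavity, and a 10 mL saline rinse 3 days later. The labels call the cells peritoneal macrophages but describe no sorting, and they do not say whether a sample came from 1 mouse or several, so the p-values measure only the spread between these samples. Depth was 14156421 to 16169060 reads in genes per sample. The first principal component over all genes (35.95% of the variance) placed diabetic 1, 2 and 4 at -30.5 to -20.9, diabetic 3 at -1.44 and the control samples at 11.2 to 23.5. Summed macrophage markers (9 genes with a row) were 1986, 2031, 2735 and 1611 FPKM in diabetic 1 to 4. They were 2064, 2765, 2382, 2331 and 2087 FPKM in control 1 to 5. Diabetic 1, 2 and 4 thus lay below all control samples and diabetic 3 inside the control range. None of these markers was at 0 in every sample.

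Ribosomal proteins are made in matched amounts and assembled on ribosomal RNA in the nucleolus, and most of them are needed for every ribosome. Their messenger RNAs begin with a cytosine followed by a run of pyrimidines, the 5′ terminal oligopyrimidine (TOP) motif, through which mTORC1 and the protein LARP1 set how fast they are translated. Resting lymphocytes hold large pools of these messages, and the total rises in cells that prepare to grow or divide. Because the transcripts are short and abundant, and because the genome holds many processed copies of them, the values of single genes also depend on how reads were assigned.

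Start regions are shown because the pyrimidine run at the start is the feature this gene family is known for. They are those of 6 genes that passed the test described below and of 3 that did not. The 3 all hold the run, which 25 of 59 genes with a window do, so the regions shown do not compare passing with other genes. Each is 40 bases from RefSeq on GRCm38.p6, 20 before and 20 from the annotated start, on the gene's own strand, 5′ to 3′. Capitals mark a run of at least 7 pyrimidines whose first base is a C within 10 bases of the start.
Rpl5: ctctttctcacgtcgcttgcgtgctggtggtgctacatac
Rpl22: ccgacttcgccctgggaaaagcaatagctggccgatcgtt
Rpl39: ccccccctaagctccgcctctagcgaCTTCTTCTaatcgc
Rps7: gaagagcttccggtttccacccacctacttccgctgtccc
Rps15a: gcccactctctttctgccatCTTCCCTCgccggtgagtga
Rps23: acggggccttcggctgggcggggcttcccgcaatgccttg
Rps6: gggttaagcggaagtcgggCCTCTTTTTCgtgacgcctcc
Rplp2: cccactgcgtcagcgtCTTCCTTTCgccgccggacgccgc
Rpl13a: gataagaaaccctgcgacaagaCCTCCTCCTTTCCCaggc

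Of the 76 genes, 59 had a RefSeq window that runs from 250 bases before the start to 50 bases after it. A pyrimidine run of this kind lay at the start in 25 of the 59 (42.4%), against 12.2% of 27025 windows of the whole genome. The 7 letters CCGGAAG, on either strand, were found in 24 of the 59 windows (40.7%), against 9.12% of all windows. The letters AAGATGGC were in 4 (6.78%, against 2.88%) and TATAAA was in 6 (10.2%, against 14.2%), both on either strand. Among the 6 windows of genes that passed the test, 2 held the pyrimidine run, those of Rpl39 and Rps15a, and 2 held CCGGAAG. The motifs can overlap: CCGGAAG ends with the letters AAG that begin AAGATGGC, and both read on the other strand can share letters with a pyrimidine run. A match is a description of the annotated window, and annotated starts can lie some bases from the start that the cell uses.

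Summed over both subunits, ribosomal protein transcripts were highest in diabetic 2, 4 and 1, while diabetic 3 lay inside the control range. The sum was 60504, 79998, 51308 and 69253 FPKM in diabetic 1 to 4, against 48115, 56807, 56299, 55349 and 48610.4 FPKM in control 1 to 5. FPKM scales fragments to the length of the gene and to 1000000 reads, so the sum counts each gene per length. Diabetic 1, 2 and 4 lay above all 5 control samples, and the mean was 1.23 times as high in diabetic as in control samples, or 1.32 times without diabetic 3. As a share of all reads in genes, the 76 genes took 7.94, 10.1, 6.18 and 9.41% in diabetic 1 to 4, against 6.25, 6.46, 7.12, 6.81 and 6.38% in control 1 to 5. Diabetic 3 had the lowest share of all 9 samples.

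The sums of both subunits ordered the samples alike at the top, with diabetic 2 highest, then 4, then 1. The large subunit averaged 31530 ± 5889 FPKM in diabetic samples (SD, n = 4) and 25777 ± 2095 FPKM in control samples (SD, n = 5). The small subunit averaged 33736 ± 6413 FPKM in diabetic samples (SD, n = 4) and 27259 ± 2247 FPKM in control samples (SD, n = 5). The ratio of the large to the small sum was 0.935 ± 0.0352 in diabetic samples (SD, n = 4) and 0.946 ± 0.0201 in control samples (SD, n = 5), and the groups overlapped.

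The sums of T cell, B cell and dendritic cell markers were, like the ribosomal protein sum, highest in diabetic 1, 2 and 4. That of NK cell markers was not. The 17 T cell markers summed to 307, 548, 145 and 492 FPKM in diabetic 1 to 4, against 61.6, 51.7, 78.1, 56.0 and 48.8 FPKM in control 1 to 5, and diabetic 2, 4, 1 and 3 stood in the same falling order for these markers as for the ribosomal protein sum. Of the 15 T cell markers that could be tested, 15 were higher in diabetic samples. The 13 B cell markers summed to 2849.7, 3385, 1663 and 3562 FPKM in diabetic 1 to 4, against 2279, 1087, 2150.0, 1340.4 and 2082 FPKM in control 1 to 5, with diabetic 3 inside the control range and 3 of 13 tested markers higher. The 9 NK cell markers summed to 88.0, 93.1, 109.7 and 120.2 FPKM in diabetic 1 to 4, against 44.0, 52.5, 46.9, 89.3 and 48.7 FPKM in control 1 to 5, with 2 of 9 higher. For these, diabetic 3 stood above all control samples and diabetic 1 inside the control range. Among the dendritic cell markers 1 of 3 tested was higher. The 8 with a row summed to 178, 187, 108 and 217 FPKM in diabetic 1 to 4, against 64.5, 101, 65.9, 60.5 and 59.2 FPKM in control 1 to 5. Neutrophil markers summed to 103 to 509 FPKM in diabetic samples and 92.9 to 1075 FPKM in control samples, those of mast cells and basophils to 112 to 378 FPKM in diabetic samples and 283 to 702 FPKM in control samples, and those of eosinophils to 8.41 to 17.8 FPKM in diabetic samples and 14.7 to 51.6 FPKM in control samples, with 0 tested markers of these lists past the threshold. Large peritoneal macrophage markers summed to 250.3 to 416 FPKM in diabetic samples and 241 to 328 FPKM in control samples. Of 8 tested markers in that list 1 was lower and 6 had a log2 fold change above 0, with a median of 0.40. In the general macrophage list 1 of 8 was lower and 1 had a log2 fold change above 0, with a median of -0.22. No marker in any of these lists was at 0 in every sample. The part of these cells in the ribosomal protein values was not tested, and in bulk samples a change in the number of cells of a type cannot be told apart from a change in RNA per cell.

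**Figure D1:**
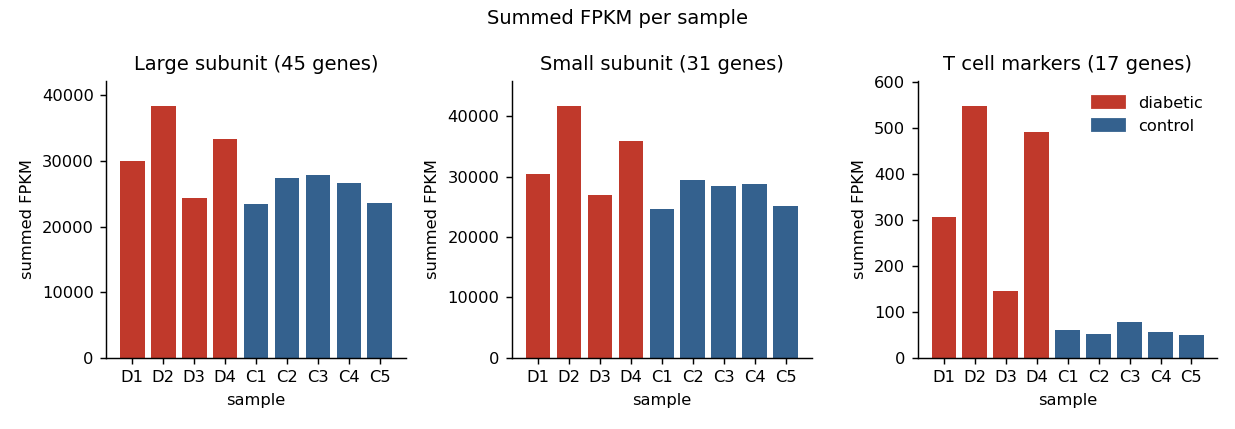
Summed FPKM of the large subunit genes, the small subunit genes and 17 T cell markers in each sample, with diabetic samples D1 to D4 in red and control samples C1 to C5 in blue. D2, D4 and D1 stand above all control bars in the 3 panels, and D3 stands inside the control range for both subunits and above it for the T cell markers.

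In the test of single genes, diabetic against control, 7 ribosomal protein genes were higher and 0 were lower among the 73 that could be tested (42 large, 31 small), by limma with Benjamini-Hochberg adjustment over 11193 genes. The members that passed make up 9.59% of those tested, against 2.68% of all genes tested that were higher and 2.08% that were lower. They were Rpl17, Rpl5, Rpl22 and Rpl39 of the large subunit (4 of 42) and Rps7, Rps15a and Rps23 of the small subunit (3 of 31). The table places them, in that order, on chromosomes 18, 5, 4, X, 12, 7 and 13. At an unadjusted p below 0.05 the count was 28 higher and 0 lower, where 11.1% of all genes were higher and 11.3% lower. Genes were tested if 4 or more samples reached 1 FPKM, which left out Rpl24, Rpl3l and Rpl10l.

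The fold changes of the other members lay mostly on the same side. The log2 fold change was above 0 for 65 of 73 members (89.0%) and for 47.7% of all genes tested. Its median was 0.34 in the large subunit and 0.24 in the small subunit, against -0.013 over all genes. The groups did not overlap for 17 members, all of them higher in diabetic samples (9 large, 8 small), where 4.82% of all genes did so in that direction. Besides the 7, they included Rpl4, Rpl7a, Rpl9, Rpl19 and Rpl26, and Rps4x, Rps24, Rps25 and Rps26, with adjusted p-values of 0.0670 (Rps24 and Rpl19) to 0.131 (Rps4x). For 0 members did all diabetic samples lie below all control samples, where 4.6% of all genes did.

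**Figure D2:**
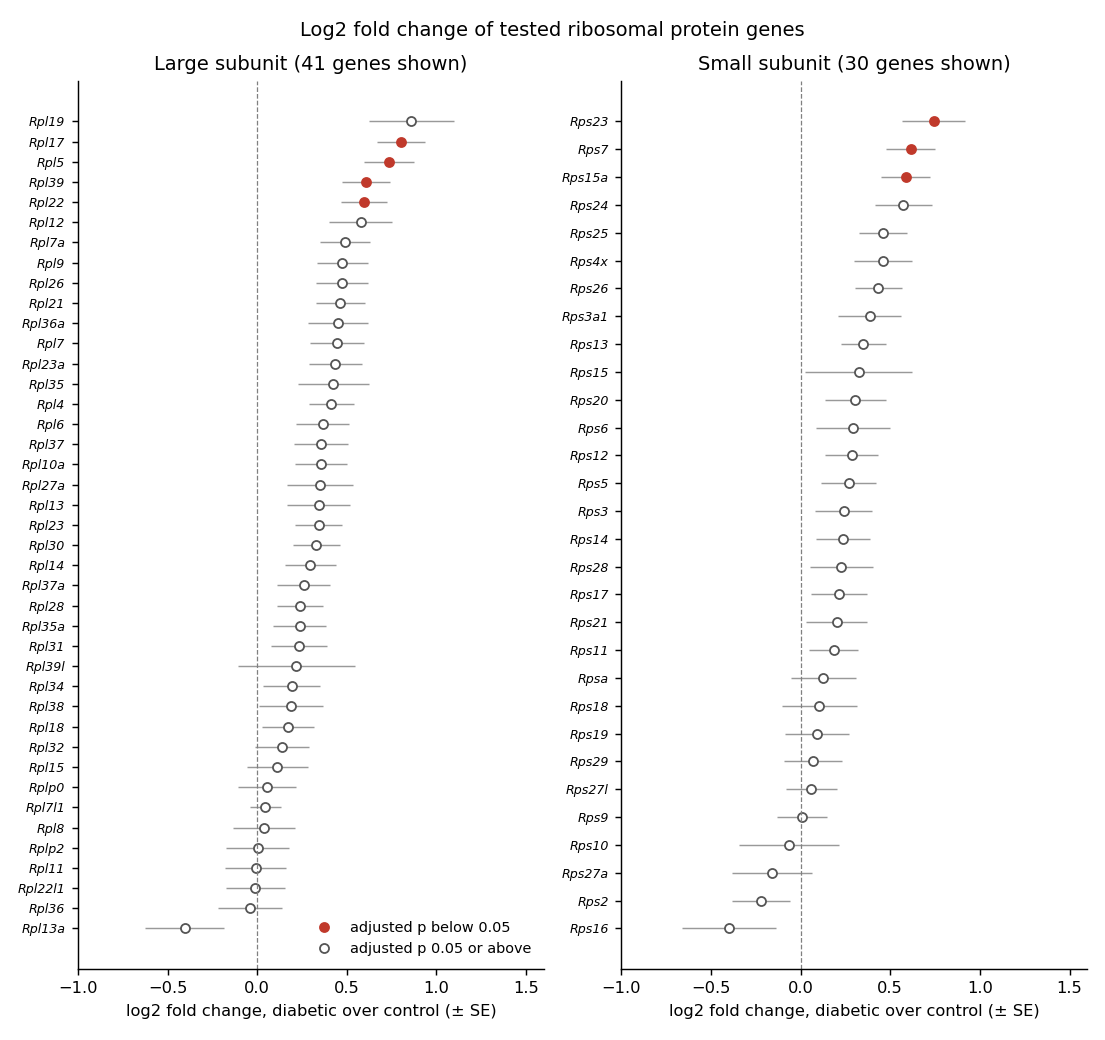
Log2 fold change, diabetic over control, of log2(FPKM + 1) for large and small subunit genes tested, 1 of each not shown, with bars for the SE and filled points for an adjusted p below 0.05. Most points lie right of 0, the 7 filled points lie between 0.59 and 0.80, and Rpl13a and Rps16 stand at the lower end near -0.40.

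Among the proteins that line the exit tunnel of the large subunit, through which the new chain leaves, Rpl17 and Rpl39 were higher in diabetic samples. Rpl17, whose protein reaches into the tunnel wall, had 2339, 3329, 2395 and 2886 FPKM in diabetic 1 to 4, against 1418, 1643, 1687, 1485 and 1542 FPKM in control 1 to 5. Every diabetic sample lay above every control sample, diabetic 3 included. It averaged 2737 ± 465 FPKM in diabetic samples (SD, n = 4) and 1555 ± 111 FPKM in control samples (SD, n = 5), and the test gave log2 fold change 0.80 with an SE of 0.14, adjusted p = 0.0129, on 16157 to 38071 reads per sample. It passed in each of the 9 leave-one-out fits, which drop 1 sample each.

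Rpl39, a very small protein of the tunnel wall, had 556, 785, 519 and 667 FPKM in diabetic 1 to 4, against 401, 423, 389, 430.3 and 402 FPKM in control 1 to 5. The groups did not overlap (log2 fold change 0.61 with an SE of 0.13, adjusted p = 0.0280). It passed in 2 of the 9 leave-one-out fits, those without diabetic 3 and without control 2. Its groups were 632 ± 120.1 FPKM in diabetic samples (SD, n = 4) and 409 ± 17.3 FPKM in control samples (SD, n = 5).

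The list of tunnel proteins held 8 genes, all tested, of which 2 were higher and 0 lower. All 8 log2 fold changes were above 0, with a median of 0.45. Of all tested large subunit members, 9.52% were higher and 90.5% had a log2 fold change above 0, against 2.68% and 47.7% of all genes tested. The tunnel list was not tested against the other members. The largest log2 fold change of any member was that of Rpl19, which did not pass. Its own row had 31.1, 52.5, 86.3 and 44.7 FPKM in diabetic 1 to 4, against 23.2, 25.9, 30.8, 26.7 and 30.2 FPKM in control 1 to 5. Diabetic 3 was the highest sample, at 86.3 FPKM, and the groups did not overlap (log2 fold change 0.86 with an SE of 0.24, adjusted p = 0.0670). The Rpl19 row held few of the reads that match this protein: 87.9% of them lay on pseudogene rows. With those reads added, an alternative chosen after seeing the data, its log2 fold change was 0.66 (adjusted p = 0.0365).

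The 5S ribonucleoprotein brings 5S ribosomal RNA and the proteins of Rpl5 and Rpl11 into the large subunit, and outside the ribosome it binds the p53 regulator MDM2. Of its 2 genes, Rpl5 passed and Rpl11 did not. Rpl5 had 158, 225, 150.2 and 196 FPKM in diabetic 1 to 4, against 92.8, 123, 108, 113 and 104 FPKM in control 1 to 5. All diabetic samples were above all control samples (log2 fold change 0.73 with an SE of 0.14, adjusted p = 0.0186), and the gene passed in 7 of the 9 leave-one-out fits. Without diabetic 2 its adjusted p was 0.0582, and without diabetic 4 it was 0.0683. Rpl11 had 420.2, 488, 276 and 432 FPKM in diabetic 1 to 4, against 347, 477, 411, 408 and 359 FPKM in control 1 to 5. Diabetic 3 was the lowest sample and diabetic 2 the highest, and the groups overlapped (log2 fold change -0.01 with an SE of 0.17, adjusted p = 0.982). The difference between the 2 genes was not tested.

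Rpl22, an RNA-binding protein that ribosomes can do without and that mouse alpha-beta T cells need to develop, had 232, 303, 214 and 265 FPKM in diabetic 1 to 4, against 156, 175, 147, 185 and 168 FPKM in control 1 to 5. The groups did not overlap (log2 fold change 0.60 with an SE of 0.13, adjusted p = 0.0256). It passed in 4 of the 9 leave-one-out fits, those without diabetic 3, control 2, control 4 and control 5. Its paralog Rpl22l1 had 29.3, 29.4, 19.3 and 20.9 FPKM in diabetic 1 to 4, against 27.8, 22.8, 20.2, 30.8 and 22.2 FPKM in control 1 to 5. The Rpl22l1 values overlapped fully between the groups (log2 fold change -0.01 with an SE of 0.16, adjusted p = 0.977).

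In the small subunit, Rps23, whose protein lies at the decoding centre where codon and anticodon meet, had 677, 1108, 722 and 970.3 FPKM in diabetic 1 to 4, against 421, 610.2, 461, 597 and 483 FPKM in control 1 to 5. The lowest diabetic samples, 1 and 3, stood just above the highest control samples, 2 and 4, so the groups did not overlap (log2 fold change 0.74 with an SE of 0.18, adjusted p = 0.0392). It passed without diabetic 1, without diabetic 3 and without control 2, and in 0 of the other 6 leave-one-out fits. Of the 9 genes tested in the list of the decoding site and the messenger RNA channel, Rps23 was the only 1 that passed. Of these 9, 8 had a log2 fold change above 0, with a median of 0.24, where 89.0% of the 73 tested members were above 0 and 9.59% passed. Rps2, at the channel entrance, had 688, 778, 442 and 720.4 FPKM in diabetic 1 to 4, against 778, 772, 805, 689 and 713 FPKM in control 1 to 5, with diabetic 3 the lowest sample and the groups overlapping (log2 fold change -0.22 with an SE of 0.16, adjusted p = 0.449).

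Rps7, a protein of the small subunit, had 1431, 1964, 1374 and 1687 FPKM in diabetic 1 to 4, against 931, 1166, 1111, 1083 and 948 FPKM in control 1 to 5. The groups did not overlap (log2 fold change 0.61 with an SE of 0.14, adjusted p = 0.0324). Rps15a, also of the small subunit, had 137, 198, 126 and 172 FPKM in diabetic 1 to 4, against 97.6, 104, 108, 112 and 96.2 FPKM in control 1 to 5. Its groups did not overlap either (log2 fold change 0.59 with an SE of 0.14, adjusted p = 0.0373). Pseudogene rows held 22.5% of the reads that match the Rps15a protein, against 0.0676% for Rps7, and with those reads added Rps15a still passed. In the leave-one-out fits Rps7 passed without diabetic 3 and without control 2, and Rps15a only without diabetic 3.

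Rps24 came next by p in the small subunit and did not pass. It had 2191, 3207, 1956 and 2891 FPKM in diabetic 1 to 4, against 1622, 1667, 1662, 1940.2 and 1573 FPKM in control 1 to 5. Diabetic 3 lay just above control 4, which stood away from the other control samples, and the groups did not overlap (log2 fold change 0.57 with an SE of 0.16, adjusted p = 0.0670). Rps7 and Rps24 belong to a list of 13 genes that are mutated in human Diamond-Blackfan anaemia, a failure of red cell production. Of the 13, all tested, Rps7 and Rpl5 were higher and 0 were lower, 11 log2 fold changes were above 0, and the median was 0.23. Over the 73 tested members, 9.59% were higher and 89.0% had a log2 fold change above 0.

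**Figure D3:**
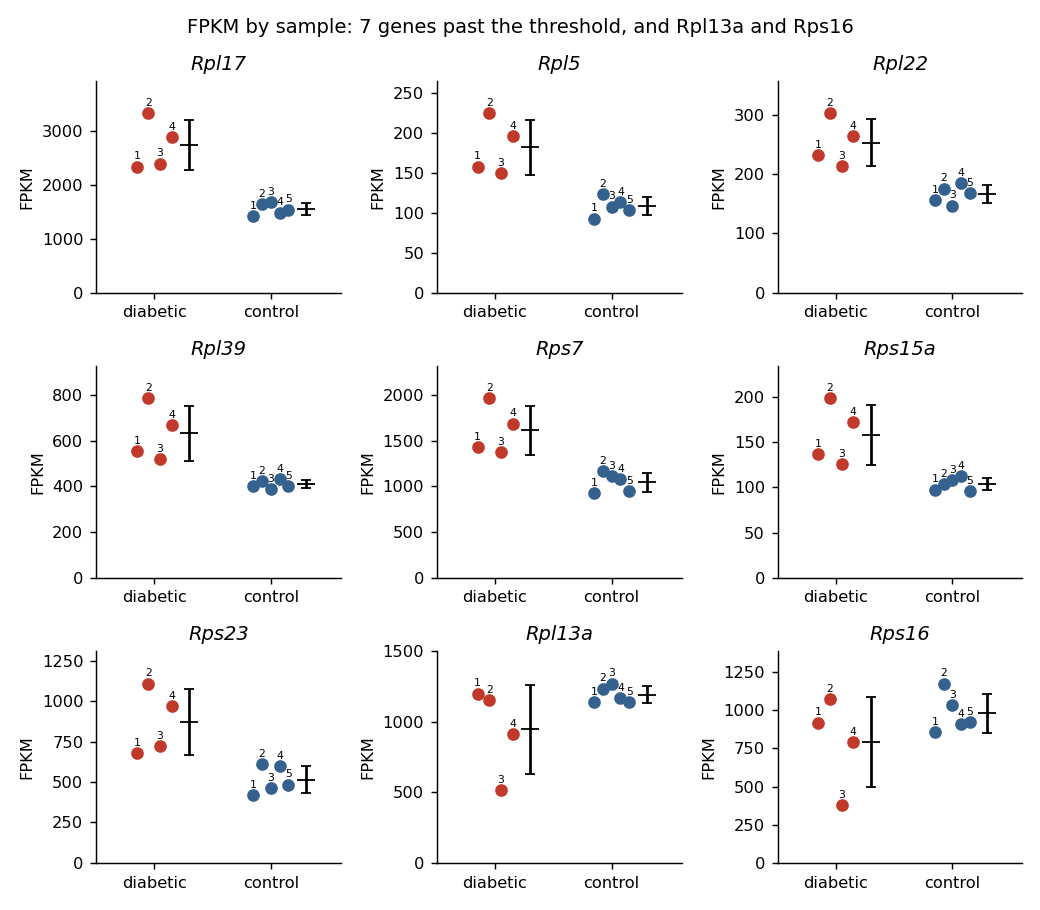
FPKM in each sample for the 7 genes past the threshold and for Rpl13a and Rps16, with diabetic samples in red, control samples in blue, the sample number above each point, and a bar for the mean ± SD. The groups do not overlap in the first 7 panels, and diabetic 3 is the lowest point for Rpl13a (517 FPKM) and for Rps16 (381 FPKM).

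The lowest log2 fold change of each subunit was that of a gene with its lowest value in diabetic 3. Rpl13a, known from human monocytes as a part of a complex that silences inflammatory messages, had 1201, 1155, 517 and 912 FPKM in diabetic 1 to 4, against 1139, 1236, 1272, 1171 and 1138 FPKM in control 1 to 5. Diabetic 1 and 2 lay within the control range, diabetic 4 below it and diabetic 3 far below it (log2 fold change -0.40 with an SE of 0.22, adjusted p = 0.309). Without diabetic 3 the log2 fold change was -0.14. Rps16 had 918, 1073, 380.5 and 793 FPKM in diabetic 1 to 4, against 859, 1174, 1035, 908 and 919.8 FPKM in control 1 to 5. Diabetic 3 and 4 lay below the control range and the other two within it (log2 fold change -0.40 with an SE of 0.26, adjusted p = 0.402), and without diabetic 3 the log2 fold change was -0.08.

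The stalk of the large subunit, built from Rplp0 and the acidic proteins Rplp1 and Rplp2 and resting next to Rpl12, recruits the elongation factors. Of its 3 genes tested 0 passed, and the median log2 fold change was 0.05. Rplp0 had 1802, 2409, 1386 and 2151 FPKM in diabetic 1 to 4, against 1818, 1761, 2098, 1814 and 1671 FPKM in control 1 to 5. Diabetic 2 and 4 stood above the control range and diabetic 3 below it (log2 fold change 0.05 with an SE of 0.16, adjusted p = 0.875). Rplp2 had 457, 504, 259.6 and 423 FPKM in diabetic 1 to 4, against 390.2, 383, 423, 394 and 403 FPKM in control 1 to 5. Diabetic 3 was again the lowest and the other diabetic samples lay above the control range, and the group means nearly coincided (log2 fold change 0.00 with an SE of 0.17, adjusted p = 0.997).

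Rpl12, at the base of the stalk, did not pass on all samples (log2 fold change 0.58 with an SE of 0.17, adjusted p = 0.0850). It passed in 1 of the 9 leave-one-out fits, that without diabetic 3 (log2 fold change 0.74, adjusted p = 0.0124). Without diabetic 2 its log2 fold change was 0.42 with an adjusted p of 0.215. For the messages with the highest level per length, Rpl37a had 3031, 4241, 2882 and 3731 FPKM in diabetic 1 to 4, against 2618, 2786, 3132, 3236 and 2619 FPKM in control 1 to 5, with diabetic 2 and 4 above the control range (log2 fold change 0.26 with an SE of 0.15, adjusted p = 0.334). Rps12 had 3112, 4349, 2738 and 3622 FPKM in diabetic 1 to 4, against 2668, 2798, 3051, 2896 and 2588 FPKM in control 1 to 5, with diabetic 1, 2 and 4 above it (log2 fold change 0.28 with an SE of 0.15, adjusted p = 0.284).

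Rps6, whose protein is the classical substrate of S6 kinase below mTORC1, had 353, 574, 342 and 549 FPKM in diabetic 1 to 4, against 311, 343, 519, 308 and 358 FPKM in control 1 to 5. Control 3 stood far above the other control samples, and the groups overlapped (log2 fold change 0.29 with an SE of 0.21, adjusted p = 0.440). Rpsa, which also serves as a laminin receptor, had 563, 771, 399 and 697 FPKM in diabetic 1 to 4, against 521, 508, 615, 571 and 494 FPKM in control 1 to 5. Diabetic 3 was lowest and diabetic 2 highest (log2 fold change 0.13 with an SE of 0.18, adjusted p = 0.729). Rps27a, which is made as a fusion with ubiquitin, had the lowest mean of the small subunit and had 27.0, 38.1, 19.6 and 38.0 FPKM in diabetic 1 to 4, against 25.2, 34.3, 28.2, 34.6 and 48.1 FPKM in control 1 to 5. The highest sample was control 5 (log2 fold change -0.16 with an SE of 0.23, adjusted p = 0.722).

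The paralogs, copies of ribosomal protein genes that are expressed in fewer tissues or at lower levels, did not pass. Of 6 with a row, 4 were tested and 0 were called, with a median log2 fold change of 0.05. Rps27l, which is known as a target of p53, had 142, 165, 198 and 165 FPKM in diabetic 1 to 4, against 144, 195, 136, 184 and 146 FPKM in control 1 to 5. Its groups overlapped, and diabetic 3 was the highest sample (log2 fold change 0.06 with an SE of 0.14, adjusted p = 0.840). Rpl7l1 had 51.2, 52.1, 50.1 and 47.2 FPKM in diabetic 1 to 4, against 44.8, 53.0, 48.8, 46.5 and 49.9 FPKM in control 1 to 5. It had the smallest SE of the 4 (log2 fold change 0.05 with an SE of 0.09, adjusted p = 0.802).

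Rpl39l, known from the testis, was near the filter at 2.68, 1.14, 0.420 and 0.309 FPKM in diabetic 1 to 4, against 1.16, 0.245, 0.758, 0.171 and 1.42 FPKM in control 1 to 5 (log2 fold change 0.22 with an SE of 0.33, adjusted p = 0.742). Rpl3l, a gene of heart and skeletal muscle, was under the filter at 0.309, 0.165, 0.340 and 0.312 FPKM in diabetic 1 to 4, against 0.548, 0.0825, 0.340, 0.0865 and 1.17 FPKM in control 1 to 5. Rpl10l, a gene of the testis, was listed at 0 in all 9 samples. The Rpl24 row was also under the filter. It had 0.766, 0.594, 1.15 and 1.40 FPKM in diabetic 1 to 4, against 0.212, 0.521, 0.614, 0.858 and 0.544 FPKM in control 1 to 5, while pseudogene rows held 97.4% of the reads matching this protein, so these values do not give the level of Rpl24.

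The number of members outside the control range varied between the diabetic samples. Of the 73 tested members, 63 stood above all 5 control samples in diabetic 2, 55 in diabetic 4, 41 in diabetic 1 and 18 in diabetic 3. Over all genes the shares above all controls were 24.3% in diabetic 2, 23.9% in diabetic 4, 19.9% in diabetic 1 and 20.4% in diabetic 3. Below all controls stood 26 members in diabetic 3, against 0 in diabetic 2 and 2 each in diabetic 1 and diabetic 4, where the shares of all genes were 20.7% in diabetic 3, 25.2% in diabetic 2, 20.8% in diabetic 1 and 26.2% in diabetic 4. Diabetic 3 had members on both sides, with deviations on the log2 scale from -1.35 (Rps16) to 1.63 (Rpl19) and a median of -0.03. The medians were 0.61 in diabetic 2, 0.39 in diabetic 4, 0.21 in diabetic 1, and -0.14 to 0.09 in the control samples.

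**Figure D4:**
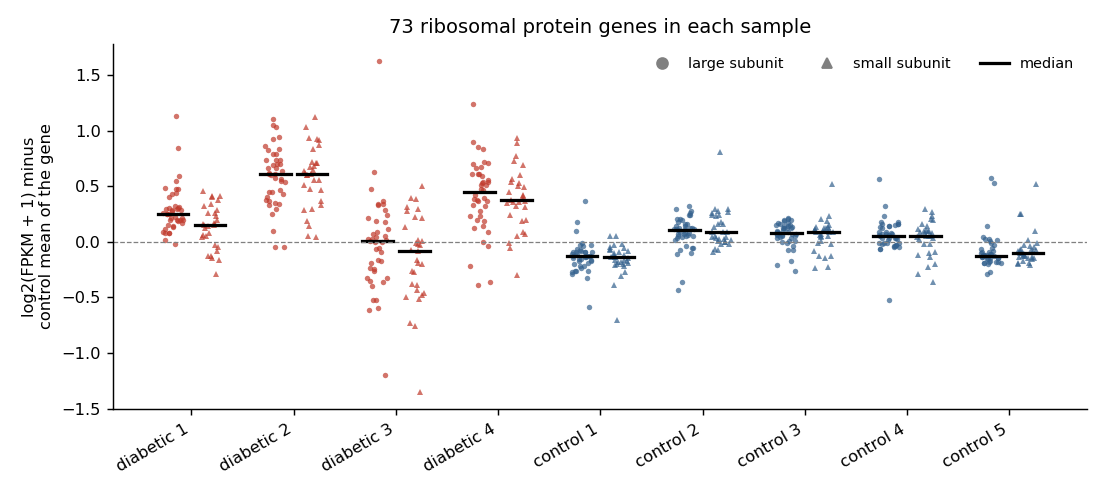
Difference of log2(FPKM + 1) from the control mean of the same gene, for the 73 tested genes in each sample, with circles for the large and triangles for the small subunit and black lines for the medians. The medians of diabetic 1, 2 and 4 lie above those of all control samples, and diabetic 3 spreads widely around 0.

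The number of members past the threshold depended on single libraries. Without diabetic 3 it was 27 higher (17 large, 10 small), with 5.27% of all genes higher. These 27 included the 7 and, among others, Rpl4, Rpl7a, Rpl9, Rpl10a, Rpl12, Rpl13, Rpl14, Rpl19, Rpl21, Rpl23, Rpl23a, Rpl30 and Rpl36a of the large subunit and Rps3, Rps13, Rps20, Rps24, Rps26 and Rps28 of the small subunit. Without diabetic 2 or without diabetic 4 only Rpl17 passed, with 0.761% and 0.644% of all genes higher. Rpl17 and Rpl5 alone passed without control 1 (1.9% of all genes) and without control 3 (1.26%). There were 3 without control 4 (1.83%) and without control 5 (1.95%), 4 without diabetic 1 (1.1%) and 6 without control 2 (2.21%). In none of these 9 fits was a member lower.

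Relative to each other, 12 of 73 members made up a larger and 5 a smaller part of the ribosomal protein total in diabetic samples without overlap. The shares of the other members overlapped. Shares of 1 total cannot all move the same way, and a lack of overlap by itself places diabetic 3 with the other diabetic samples. The genes given here with values had passed the test or had the lowest log2 fold changes, so their shares are not separate evidence. Each gene's FPKM was divided by the summed ribosomal protein FPKM of the same sample, a description that no scaling between samples can change. The share of Rpl17 was 3.87, 4.16, 4.67 and 4.17% in diabetic 1 to 4, against 2.95, 2.89, 3.00, 2.68 and 3.17% in control 1 to 5, so it was highest in diabetic 3. The share of Rpl5 was 0.261, 0.281, 0.293 and 0.283% in diabetic 1 to 4, against 0.193, 0.217, 0.192, 0.205 and 0.213% in control 1 to 5. The share of Rps7 was 2.37, 2.45, 2.68 and 2.44% in diabetic 1 to 4, against 1.94, 2.05, 1.97, 1.96 and 1.95% in control 1 to 5. For these genes every diabetic sample lay above every control sample.

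By contrast, the share of Rpl13a was 1.99, 1.44, 1.01 and 1.32% in diabetic 1 to 4, against 2.37, 2.18, 2.26, 2.12 and 2.34% in control 1 to 5, and the share of Rps16 was 1.52, 1.34, 0.742 and 1.14% in diabetic 1 to 4, against 1.78, 2.07, 1.84, 1.64 and 1.89% in control 1 to 5. Both were lower in every diabetic sample than in any control sample, and lowest in diabetic 3. The shares of 12 members did not overlap and were higher in diabetic samples, among them the 7 that passed and Rpl4, Rpl9, Rpl12, Rpl23a and Rps24. Over all genes tested, the same ratio was higher without overlap for 1.66%. The shares of 5 members were lower without overlap, Rpl11, Rpl13a, Rps2, Rps9 and Rps16, where 10.2% of all genes were. The sum that divides each gene was itself 1.23 times as high in diabetic samples, which lowers the ratio of genes outside the family. On FPKM without this divisor, 4.82% of all genes were higher without overlap and 4.6% lower. These backgrounds are thus set partly by the divisor, and neither count of shares is read as a result about the members. Without diabetic 3 the counts were 14 higher (background 2.71%) and 6 lower (background 34.5%). These shares were not tested.

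The transcripts of the members that passed had a lower median GC content than those of the other tested members. The GC content had a median of 47.2% in the 7 members that passed, of which Rps7 was the highest at 53.5%, and of 52.2% in the other 66 tested members. It was 47.7% for the 12 members with higher shares and 53.6% for the 5 with lower shares. The 12 include the 7 that passed, so this is not a separate observation. Across the 73 members the log2 fold change and the GC content had a Spearman rho of -0.34, and across 9470 genes with a GC value the rho was -0.16. These are relations across genes measured in the same libraries, given as a description. The deviation of each sample from the control mean had a rho with GC content, over the 73 members, of -0.37, -0.32, -0.45 and -0.19 in diabetic 1 to 4, against 0.02, -0.11, 0.29, -0.34 and 0.07 in control 1 to 5. Over all genes with a GC value the same rho was 0.10, 0.00, -0.39 and -0.22 in diabetic 1 to 4, against -0.22, 0.25, 0.60, -0.42 and -0.25 in control 1 to 5. The 4 diabetic values over the members were all below 0, but each is taken from the same control mean, so their signs are not separate observations. Over the members, control 4 at -0.34 was below diabetic 2 and diabetic 4. Over all genes the value of diabetic 1 was above 0, that of diabetic 2 was 0.00, and those of diabetic 3 and 4 were below 0. The control values over all genes ran wider, from -0.42 to 0.60. In diabetic 1, control 1, control 2 and control 5 the members and all genes differed in sign, with some of these values near 0. With each sample corrected for its trend on GC content, an alternative chosen after seeing the data, 11 members passed, the 7 among them, with 3.98% of all genes higher. The part of base composition in the members' values was not tested. The mean level had a rho of -0.01 with the log2 fold change over the 73 members.

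**Figure D5:**
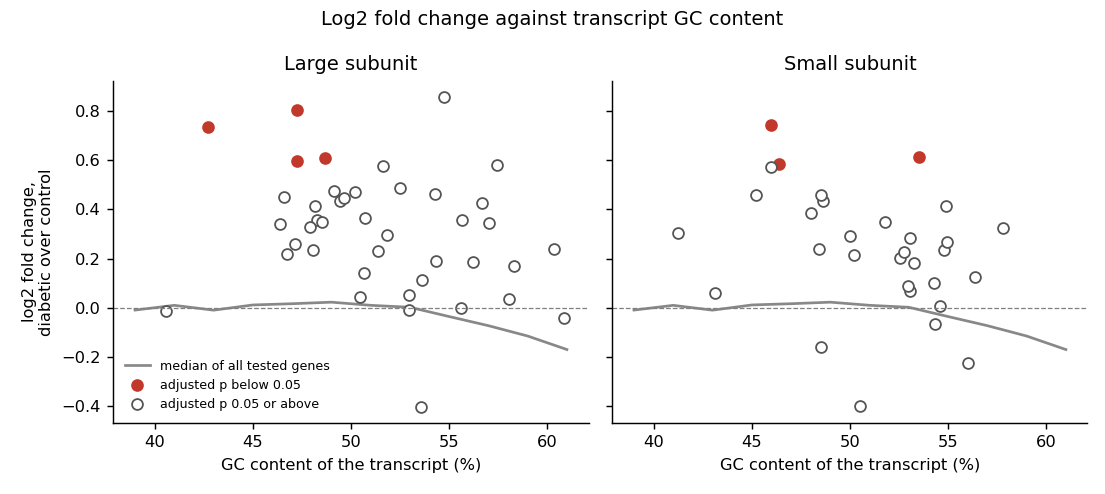
Log2 fold change, diabetic over control, against the GC content of the transcript for the tested genes of each subunit, with filled points for an adjusted p below 0.05 and a grey line for the median of all tested genes in steps of GC content. Of the 7 filled points, 6 lie between 42.7% and 48.7% GC and Rps7 lies at 53.5%. Open points lie in that range too, and below it for Rpl22l1 (40.6%) and Rps20 (41.3%).

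Of 190 other genes of the translation machinery tested, in 6 lists, 5 passed the threshold, 3 higher and 2 lower. That is 2.63%, against 4.76% of all genes tested, so these counts are not above the background. Of 19 tested genes for translation factors whose messages carry the TOP motif, 0 passed, 18 had a log2 fold change above 0, and the median was 0.23. The smallest p in that list was that of Eif3e, a subunit of initiation factor 3, with 141 ± 12.5 FPKM in diabetic samples (SD, n = 4) and 103 ± 16.4 FPKM in control samples (SD, n = 5), a log2 fold change of 0.46 (SE 0.13) and an adjusted p of 0.0723. Of 22 initiation factor genes, Eif3a, the scaffold of initiation factor 3, was lower, with 22.8 ± 3.18 FPKM in diabetic samples (SD, n = 4) and 31.9 ± 3.09 FPKM in control samples (SD, n = 5), a log2 fold change of -0.47 (SE 0.12) and an adjusted p of 0.0454, and 0 were higher. The median of that list was -0.09.

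Of 8 tested host genes of small nucleolar RNAs, Gas5, a noncoding RNA with a TOP motif, was higher, with 36.5 ± 7.46 FPKM in diabetic samples (SD, n = 4) and 23.2 ± 2.09 FPKM in control samples (SD, n = 5), a log2 fold change of 0.61 (SE 0.14) and an adjusted p of 0.0320. The median of the list was 0.34. Of 46 ribosome biogenesis genes 0 passed, 31 had a log2 fold change above 0, and the median was 0.10. The smallest p there was that of Nhp2, a protein of the pseudouridylation complex, with 56.6 ± 7.16 FPKM in diabetic samples (SD, n = 4) and 74.6 ± 6.70 FPKM in control samples (SD, n = 5), a log2 fold change of -0.39 (SE 0.11) and an adjusted p of 0.0769.

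Of 21 regulators around mTORC1 and Myc, Eef2k, the kinase that brakes elongation factor 2, was lower, with 4.01 ± 0.774 FPKM in diabetic samples (SD, n = 4) and 8.20 ± 2.57 FPKM in control samples (SD, n = 5), a log2 fold change of -0.84 (SE 0.21) and an adjusted p of 0.0446. The median of that list was -0.10. Control 2 and 4 had 5.62 and 5.26 FPKM, close to the highest diabetic sample at 4.97 FPKM. Of 74 mitochondrial ribosomal protein genes, Mrpl45 and Mrps30 were higher and 0 were lower, and the median was 0.07. Mrpl45 had 18.9 ± 1.75 FPKM in diabetic samples (SD, n = 4) and 13.0 ± 1.31 FPKM in control samples (SD, n = 5), a log2 fold change of 0.50 (SE 0.10) and an adjusted p of 0.0232. Mrps30 had 19.8 ± 1.48 FPKM in diabetic samples (SD, n = 4) and 14.0 ± 1.43 FPKM in control samples (SD, n = 5), a log2 fold change of 0.47 (SE 0.10) and an adjusted p of 0.0249. Eif3a, Gas5 and Eef2k each passed in 2 of the 9 leave-one-out fits, Mrpl45 in 6 and Mrps30 in 4.

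Several ribosomal proteins had their reads on rows outside the naming rule, found by the protein match in the table's own description and chosen after their values were seen. The row Rps27rt, which matches the Rps27 protein of the small subunit, had 1362, 1779, 1144 and 1718 FPKM in diabetic 1 to 4, against 918, 899.5, 1044, 952 and 894 FPKM in control 1 to 5. Its groups did not overlap and it was higher in diabetic samples (log2 fold change 0.65 with an SE of 0.15, adjusted p = 0.0313). The row Gm10073, which matches Rplp1, had 3421, 4393, 2256 and 3576 FPKM in diabetic 1 to 4, against 3564, 3940.3, 4084, 3779 and 3275 FPKM in control 1 to 5. The groups overlapped and diabetic 3 was the lowest sample (log2 fold change -0.16 with an SE of 0.18, adjusted p = 0.637), as it was for Rplp0 and Rplp2. The row Gm9843, which matches Fau, a small subunit protein made as a fusion with a ubiquitin-like protein, had 2423, 2944, 1835 and 2346 FPKM in diabetic 1 to 4, against 2205, 2690.2, 2651, 2600.0 and 2237 FPKM in control 1 to 5 and did not pass (log2 fold change -0.07 with an SE of 0.15, adjusted p = 0.826). The unnamed row that matches Rpl27 had a log2 fold change of 0.37 (SE 0.13, adjusted p = 0.116) and that matching Rpl3 had 0.19 (SE 0.15, adjusted p = 0.505).

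The split of reads between genes and their pseudogene copies differed between members. The table held 1198 pseudogene rows that match a member's protein, 412 of them with reads. These rows took 2.99, 3.28, 3.04 and 3.45% of the reads of members and copies in diabetic 1 to 4, against 2.90, 3.12, 2.82, 2.80 and 3.10% in control 1 to 5. Copies held over 50% of the matching reads for 4 members, Rpl24, Rpl19 and Rpl10l among them. They held over 10% for 11 members, these 4 and Rps15a included, and under 1% for 49. Only pseudogene rows were counted as copies, so reads on protein-coding rows outside the naming rule are not covered. With the copies' reads added, 8 members passed, the 7 and Rpl19, with 2.61% of all genes higher. Values of members with many copies are uncertain because reads that fit a gene and its copy can be placed on either row.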

How the data were processed

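RNA was sequenced from peritoneal exudate cells in 4 diabetic and 5 control samples. Libraries were made with a SMARTER messenger RNA kit, per the labels' protocols. The deposited table gives FPKM per gene with lengths and biotypes, per the file headers. GRCm38 and mm10 are named in the submitters' processing notes. For the aligner, the counter and strand handling, the tools and settings were not given in the sources used here. No starts or ends are printed from the table, whose gene identifiers are of the C57BL/6NJ gene set. FPKM times gene length gave whole read numbers for 99.9995% of values (tolerance 0.05), from which depth was taken, and PCR duplicates were not separable from molecules.

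Genes that reached 1 FPKM in 4 or more samples (11193) were fitted on log2(FPKM + 1) with limma 3.58.1 in R 4.3.3 (lmFit, eBayes with trend and robust moderation), group as the only factor, two-sided, with Benjamini-Hochberg adjustment over all tested genes and a threshold of 0.05. Fold changes on this scale understate those of low genes. Because the unit was FPKM, no count model was used. GC content came from GENCODE transcripts, matched by name for 84.6% of tested genes and for all 73 tested members.

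The members and all gene lists were chosen with earlier results of these data known. Genes named with values are those past the threshold, the 4 with the smallest p where fewer than 4 passed, the highest and lowest mean and the largest rise and fall per subunit, the paralogs, and Rplp0, Rplp2, Rpsa, Rps6 and Rps27a. From each pathway list up to 3 passing genes were named or, with none, the 1 with the smallest p. Rpl11, Rpl12 and Rps2 were added after their values were seen. Single values of some members are not reported here, though the counts include them. Alternatives are given in the closing section.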

Additional observations from a re-analysis of the deposited data

Results flagged for a closer look

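Of 50 sets of values, which are the named members that had reads and the 2 subunit sums in each group, 2 held a sample that stood apart from the rest of its group by Dixon's test at the 95% level, and chance gives about 1 in 20 groups. Rps24 had 1940.2 FPKM in control 4, with the other control samples at 1573 to 1667 FPKM. Rps6 had 519 FPKM in control 3, with the other control samples at 308 to 358 FPKM.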

How the results depend on the processing

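The median log2 fold change of each subunit stayed above 0 under all 20 alternatives, at 0.23 to 0.44 for the large subunit. For the small subunit it was 0.13 to 0.39 when single samples were left out. The summed FPKM was higher in diabetic samples under all 13 alternatives that change it, by 7319 to 16882 FPKM. Counts moved more. Leaving out 1 sample gave 115 to 1126 changed genes, 1 to 17 large and 0 to 10 small subunit members, and 0 to 9 genes of the pathway lists. Array weights gave 1304 changed genes, with 15 large and 8 small subunit members and 17 pathway genes. Without the filter on low values there were 183 changed genes, 2 large and 0 small subunit members, and 0 pathway genes. The correction for GC content, chosen after seeing the data, gave 7 large subunit members and 9 pathway genes. The replicate numbers were not shown to pair the samples: deviations of samples with the same number correlated at 0.023, 0.16, -0.26 and -0.18 for numbers 1 to 4, and not every sample correlated best with its own number. With the number as a block, 62 genes, 0 large and 0 small subunit members and 0 pathway genes passed, and Rpl17 had an adjusted p of 0.0773. Number 5 occurs only in control 5, so that comparison rested on numbers 1 to 4 and had less information. Its log2 fold change for Rpl17 was 0.80, the same as without control 5. The cause of the shifts under the other alternatives was not tested. Over 435 values of 22 named members under the alternatives, 381 kept their side of the threshold, 47 lost the threshold and 7 gained it. Among called values 0 reversed. Values of members that did not pass could change sign. The log2 fold change of Rps27a was -0.16 on all samples and 0.03 without diabetic 3. The 7 members that passed had at least 4940 reads in every sample, and Rpl24, Rpl3l and Rpl10l could not be tested.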
